A study of Mus musculus with 6 samples.

Results

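Transcripts of 10 genes of the Notch pathway were compared between mouse embryonic fibroblasts of 2 genotype labels, using 6 RNA sequencing libraries. The genes were the 4 receptors Notch1, Notch2, Notch3 and Notch4, the 3 ligands Jag1, Jag2 and Dll1, and the 3 target genes Hes1, Hey1 and Heyl. They were picked by symbol, and all 10 were matched to 1 identifier each among the 46983 genes of the count files. Of the libraries, 3 were labelled wild type (WT) and 3 SphK2 null, and all came from C57BL/6 cells of embryos aged 14 days, cultured to passage 16 in DMEM with fetal bovine serum. SphK2 is sphingosine kinase 2, an enzyme that makes the lipid signal sphingosine-1-phosphate. The sources used here do not say how the null allele was made, or whether the libraries of a label came from separate cultures or embryos. The p-values below are therefore set against a spread between libraries that may be only technical.

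Notch receptors are proteins that span the cell membrane and are activated by Jagged and Delta ligands on a neighbouring cell. Binding lets proteases cut the receptor, and its released intracellular part enters the nucleus, joins the DNA-binding protein RBPJ and switches on target genes. Hes and Hey genes, the best known of these targets, encode repressors of transcription that hold back differentiation. In mesenchymal cells the pathway is known for steering cell fate, Notch3 and Heyl are known from the mural cells of blood vessels, and Notch4 from endothelium.

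The libraries held 15598566 to 23681718 counts in genes, and levels are given as CPM, the reads of a gene relative to the depth of its library. Over all genes the labels differed widely, with 79.2% of the 15199 genes tested past an edgeR quasi-likelihood adjusted p of 0.05 and a median log2 fold change of -0.02. Of the exonic bases of Sphk2, 20.8% are shared with Rpl18 and Dbp on the other strand, and reads there were left out. Sphk2 was counted in all 6 libraries and stood higher under the null label, at 50.02 against 27.3 CPM. The label is thus not borne out by the total count of its own gene. The directions below are therefore between libraries labelled null and libraries labelled wild type. The 10 fibroblast markers examined, such as Col1a1 and Thy1, were all lower in the null-labelled libraries. Their summed level was 137 to 142 CPM there and 8704 to 8977 CPM in the WT-labelled ones, and Thy1 was at 0 in the null-labelled libraries. The part of this in the Notch results was not tested. In such bulk samples fewer cells of a type and less RNA per cell cannot be told apart.

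Of the 10 genes, 8 had enough counts to be tested. All 8 passed an adjusted p of 0.05, against 79.2% of all genes, so that the count itself says little. Higher in the null-labelled libraries were 6 (38.1% of all genes were called higher), and lower were 2 (41.1% of all genes). Past the threshold and over 2-fold were 5 of the 8, against 26.2% of all genes. Of these, Notch1, Notch4, Dll1 and Hes1 were higher (10.4% of all genes) and Notch3 was lower (15.8% of all genes). The labels did not overlap in CPM for any of the 8, as for 79.9% of all genes tested. The median size of the log2 fold change, whatever its sign, was 1.53 over these 8 and 0.47 over all genes tested. The 8 include Dll1, Notch3 and Notch4, whose counts were low under 1 of the labels, so these counts describe the tested genes and are not evidence about the pathway.

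**Figure D1:**
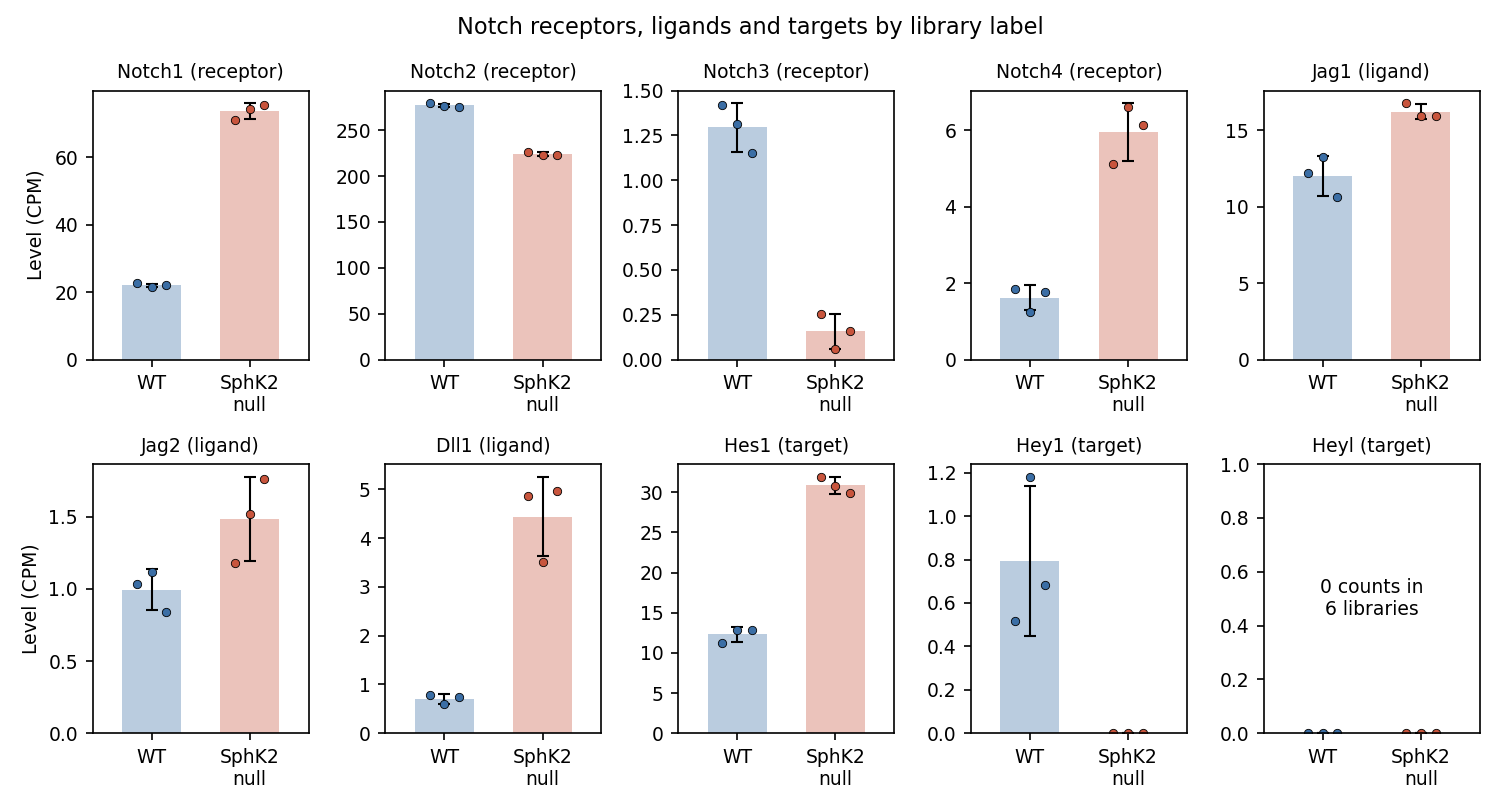
Level of each gene in CPM by library label. Points are libraries, bars are means and error bars are SD over 3 libraries, each panel has its own axis from 0, and the labels do not overlap for any gene but Heyl, which had 0 counts in 6 libraries.

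The promoters of the genes that rose most are shown because RBPJ, the partner of all 4 receptors, binds DNA with the core TGGGAA. The sequences are RefSeq windows of GRCm38.p6, which uses the coordinates of mm10, from 250 bases before to 50 bases after a transcript start. Each is printed from 5′ to 3′ on the strand of its gene, with every TGGGAA, or TTCCCA for the same core on the other strand, in capitals. Windows were matched for 7 of the 10 genes, all but Hes1, Hey1 and Heyl, and Dll1 had 2. None of these 8 windows holds the core, which 25.6% of 32851 windows of all genes do. The longer form GTGGGAA, which contains the core, was in 0 of the 8 and in 6.38% of all windows. Such letters describe a window of 300 bases only and say nothing about binding elsewhere. For comparison the windows of 3 further Hes and Hey genes that do hold the core are printed. Hes7 (chr11:69120203-69120502, plus strand) was higher in the null-labelled libraries, while Hes5 (chr4:154960673-154960972, plus strand) and Hey2 (chr10:30842734-30843033, minus strand) were almost without counts. The Notch1 window is chr2:26503773-26504072 (minus strand), that of Notch4 is chr17:34564045-34564344 (plus strand), and those of Dll1 are chr17:15375774-15376073 and chr17:15376883-15377182 (minus strand).
Notch1: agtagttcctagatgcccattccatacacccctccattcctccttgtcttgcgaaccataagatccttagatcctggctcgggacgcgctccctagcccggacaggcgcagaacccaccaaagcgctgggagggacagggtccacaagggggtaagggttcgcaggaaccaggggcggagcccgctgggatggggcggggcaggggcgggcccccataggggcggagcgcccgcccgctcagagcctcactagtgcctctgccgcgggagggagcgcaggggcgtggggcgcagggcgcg
Notch4: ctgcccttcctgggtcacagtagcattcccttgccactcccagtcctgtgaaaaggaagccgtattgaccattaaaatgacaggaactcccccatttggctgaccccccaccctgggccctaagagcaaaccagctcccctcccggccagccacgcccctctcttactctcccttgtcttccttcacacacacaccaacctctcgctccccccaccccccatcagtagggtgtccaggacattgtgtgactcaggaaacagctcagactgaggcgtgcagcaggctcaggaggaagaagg
Dll1 downstream start: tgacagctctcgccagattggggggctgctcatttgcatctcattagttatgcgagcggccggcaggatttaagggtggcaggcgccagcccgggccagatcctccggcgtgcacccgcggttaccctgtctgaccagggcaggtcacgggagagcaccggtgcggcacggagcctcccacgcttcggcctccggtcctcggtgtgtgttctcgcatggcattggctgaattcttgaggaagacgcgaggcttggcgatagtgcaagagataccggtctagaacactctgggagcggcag
Dll1 upstream start: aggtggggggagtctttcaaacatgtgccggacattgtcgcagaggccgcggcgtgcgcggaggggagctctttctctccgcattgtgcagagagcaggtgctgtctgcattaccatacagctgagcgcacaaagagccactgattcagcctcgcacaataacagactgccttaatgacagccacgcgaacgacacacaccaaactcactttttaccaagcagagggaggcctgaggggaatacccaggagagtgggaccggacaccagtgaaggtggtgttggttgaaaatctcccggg
Hes7: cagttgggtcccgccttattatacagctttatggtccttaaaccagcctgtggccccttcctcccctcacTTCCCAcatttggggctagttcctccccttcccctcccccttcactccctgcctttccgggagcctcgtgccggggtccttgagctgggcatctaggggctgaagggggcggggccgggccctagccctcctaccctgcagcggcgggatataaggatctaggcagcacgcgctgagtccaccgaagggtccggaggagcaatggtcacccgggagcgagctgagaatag
Hes5: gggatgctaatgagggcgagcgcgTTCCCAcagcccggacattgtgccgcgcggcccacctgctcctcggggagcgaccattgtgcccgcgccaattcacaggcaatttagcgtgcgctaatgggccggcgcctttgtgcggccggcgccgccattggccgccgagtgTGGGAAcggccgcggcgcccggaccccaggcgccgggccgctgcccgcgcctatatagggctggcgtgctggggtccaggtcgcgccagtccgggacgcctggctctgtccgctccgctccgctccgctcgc
Hey2: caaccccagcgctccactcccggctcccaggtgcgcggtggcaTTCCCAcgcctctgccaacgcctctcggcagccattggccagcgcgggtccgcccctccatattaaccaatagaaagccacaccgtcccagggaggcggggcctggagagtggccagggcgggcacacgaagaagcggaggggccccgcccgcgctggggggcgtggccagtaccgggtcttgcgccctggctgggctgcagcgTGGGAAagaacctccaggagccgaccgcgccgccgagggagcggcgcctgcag

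In these windows, counting from the start site, the core lies at bases -180 to -175 of Hes7, at -226 to -221 and -82 to -77 of Hes5, and at -207 to -202 and -3 to 2 of Hey2. All 5 matches extend to the longer form. These 3 were chosen because they hold the core. Over the other pathway genes described below, 15 of 59 windows hold it, or 25.4%, near the share of all windows, and 7 hold the longer form. Of the 14 genes with such a window 12 were tested, of which 8 were higher (such as Hes7, Spen and Psen2), 3 lower (Rbpj, Poglut1 and Lfng) and 1 not called. Among those higher were Dtx2, whose labels overlapped, and Psenen, at edgeR adjusted p of 0.0361 and 0.0479. Of the 26 tested genes whose windows lack the core, 12 were higher and 12 lower. Over all genes tested 38.1% were called higher and 41.1% lower. Whether genes with and without the core differ was not tested. The content of G and C in the 8 windows of the 7 genes ran from 55.7% for Jag1 to 86.0% for Jag2, each above the median of 52.7% over all windows. Those of Jag1, Notch4 and 1 of the Dll1 windows lay under the upper quartile of all windows, 61.7%.

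Among the receptors Notch1 and Notch4 were higher, and Notch2 and Notch3 lower, in the null-labelled libraries. Notch1, the receptor best known from T cells and embryonic patterning, is at chr2:26457903-26516663 (minus strand) in mm10. Notch1 stood at 22.6, 21.7 and 22.1 CPM in the WT-labelled libraries and at 71.0, 74.2 and 75.6 CPM under the null label. Every null-labelled library thus lay far above every WT-labelled one. The log2 fold change was 1.73 ± 0.049 (SE), a 3.32-fold higher level, with an edgeR adjusted p = 1.35e-264.

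Notch2, a receptor broadly expressed in mesenchyme, was the most abundant of the 4 under both labels. It is at chr3:98013527-98150361 (plus strand). Notch2 stood at 279, 276 and 275 CPM in the WT-labelled libraries and at 226, 223 and 222 CPM under the null label. The groups did not overlap, but the difference was small, 1.24-fold lower, or -0.31 ± 0.026 (SE) on the log2 scale, at an adjusted p = 2.85e-32 in edgeR.

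Notch3, at chr17:32120820-32166880 (minus strand), was scarce under both labels. It had 33, 20 and 22 counts in the WT-labelled libraries (1.29 ± 0.135 CPM, SD, n = 3) and 5, 1 and 3 counts under the null label (0.158 ± 0.0989 CPM, SD, n = 3). The null-labelled level lies about where 3 counts would put a library, 0.157 to 0.179 CPM, so that it is little above the limit of counting. Notch3 was 7.74-fold lower, a log2 fold change of -2.95 ± 0.41 (SE) at an adjusted p = 8.66e-13 in edgeR. Of the 6 smooth muscle and pericyte markers, cells in which Notch3 is known to be expressed, 5 were tested, 4 were lower and 1 higher, and none was at 0 in all libraries. Their summed level was 229 to 246 CPM in the WT-labelled and 12.7 to 13.5 CPM in the null-labelled libraries, most of it Acta2 under the first label. The part of this in the fall of Notch3 was not tested.

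Notch4, at chr17:34564268-34588503 (plus strand), went the other way. It had 43, 19 and 34 counts in the WT-labelled libraries (1.63 ± 0.33 CPM, SD, n = 3) and 100, 113 and 115 under the null label (5.95 ± 0.755 CPM, SD, n = 3). Notch4 was 3.55-fold higher, a log2 fold change of 1.83 ± 0.17 (SE) at an adjusted p = 7.15e-28 in edgeR. Of 8 endothelial markers, 3 were tested, of which Pecam1 and Egfl7 were higher and Cdh5 lower. Their sum was 12.7 to 13.5 CPM in the WT-labelled and 24.1 to 27.0 CPM in the null-labelled libraries and was mostly Egfl7. Pecam1 stood at 0.954 CPM in the WT-labelled and 2.16 CPM in the null-labelled libraries. Tie1, a receptor kinase of endothelium, was too low to test but did not overlap, with 0, 3 and 3 counts in the WT-labelled libraries and 10, 8 and 9 under the null label. Kdr and Tek, which also define endothelium, had 2 and 7 counts over the WT-labelled and 0 and 1 over the null-labelled libraries, and Emcn had no count in any. The part of endothelial cells in the rise of Notch4 was not tested. Of the 27 epithelial, haematopoietic, neural, skeletal muscle and trophoblast markers, 8 were tested, 3 were higher and 4 lower, and 5 were at 0 in all libraries. Some of these differences were large. The epithelial sum was 107 to 110.0 CPM in the WT-labelled and 383 to 410.2 CPM in the null-labelled libraries, nearly all of it the keratin Krt8. The keratin Krt18, the only other epithelial marker tested, was lower, at 1.19 against 0.289 CPM. Epcam stayed under 0.2 CPM on average under both labels. Of the neural markers, Sox2, a transcription factor of stem and neural precursor cells, fell from 112 to 0.0933 CPM and Nes rose from 301 to 434 CPM. The part of these cell types in the Notch results was not tested.

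Per length of transcript, the order of the receptors was Notch2, Notch1, Notch4 and Notch3 in the null-labelled libraries. Notch2 stood at 20.6 to 21.0 CPM per exonic kilobase there, Notch1 at 4.99 to 5.31, Notch4 at 0.636 to 0.819 and Notch3 at 0.00726 to 0.0318. In the WT-labelled libraries Notch2 stood at 25.6 to 25.9 and Notch1 at 1.52 to 1.59 CPM per kilobase. Notch4, at 0.155 to 0.229, and Notch3, at 0.143 to 0.176, overlapped there and cannot be ordered. As a share of the summed level per kilobase of all 4 receptors, Notch2 made up 93.1% ± 0.229 and Notch1 5.63% ± 0.0802 (SD, n = 3) in the WT-labelled libraries. In the null-labelled ones Notch2 made up 77.8% ± 0.841, Notch1 19.4% ± 0.58 and Notch4 2.77% ± 0.344 (SD, n = 3). The shares of Notch1 did not overlap between the labels, at 5.54% to 5.69% and 18.7% to 19.9%. An exact permutation test of 3 against 3 libraries cannot give a two-sided p below 0.1, so none is given.

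The summed receptor level itself was close to equal. It was 27.6 ± 0.238 CPM per kilobase in the WT-labelled and 26.7 ± 0.0719 in the null-labelled libraries (SD, n = 3). Without the correction for length the sums were 302 ± 2.57 and 304 ± 1.11 CPM (SD, n = 3), so that the order of the labels turned. The make-up of the receptor transcripts thus differed between the labels while their sum stayed within a few percent.

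**Figure D2:**
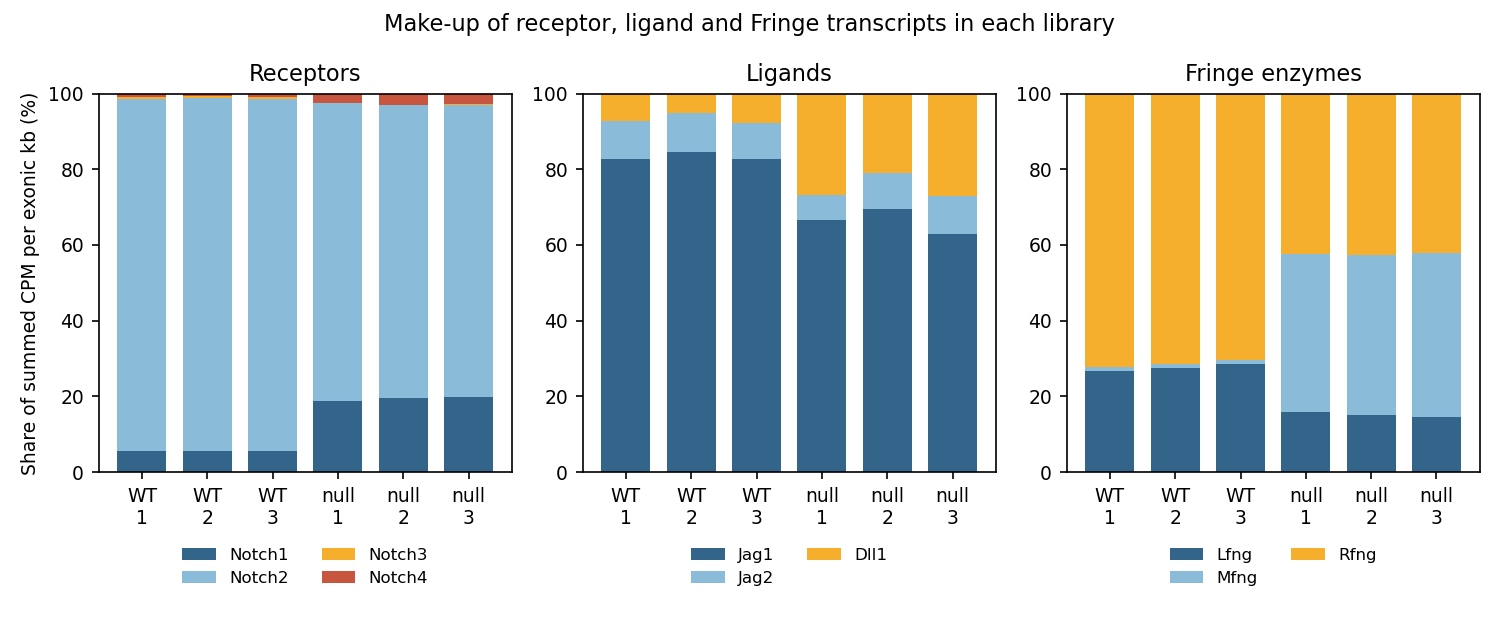
Share in percent of each gene in the summed CPM per exonic kilobase of the 4 receptors, the 3 ligands and the 3 Fringe enzymes, 1 bar per library. Notch1 makes up 18.7% to 19.9% of receptors in the 3 null-labelled bars against 5.54% to 5.69% in the others, and Mfng makes up 41.8% to 43.3% of Fringe transcripts against 0.974% to 1.04%.

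All 3 ligands were higher in the null-labelled libraries, Dll1 by the most. Dll1, a Delta ligand known from the segmentation of the embryo, is at chr17:15367354-15376872 (minus strand). It had 18, 9 and 14 counts in the WT-labelled libraries (0.699 ± 0.0964 CPM, SD, n = 3) and 95, 60 and 93 under the null label (4.44 ± 0.814 CPM, SD, n = 3). The lowest null-labelled library, at 3.5 CPM, lay well above the highest WT-labelled one, at 0.774 CPM. Dll1 was 6.23-fold higher, a log2 fold change of 2.64 ± 0.22 (SE) at an adjusted p = 1.62e-33 in edgeR.

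Jag1, a Jagged ligand of mesenchyme and vessels, is at chr2:137081456-137116644 (minus strand). Jag1 stood at 12.2, 13.3 and 10.6 CPM in the WT-labelled libraries and at 16.8, 15.9 and 15.9 CPM under the null label. The groups did not overlap, and Jag1 was 1.36-fold higher, or 0.44 ± 0.080 (SE) on the log2 scale, at an adjusted p = 7.44e-08 in edgeR.

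Jag2, at chr12:112908590-112929495 (minus strand), was scarcer and its call was weak. It had 24, 17 and 16 counts in the WT-labelled libraries and 23, 26 and 33 under the null label, or 0.995 ± 0.143 and 1.49 ± 0.292 CPM (SD, n = 3). Jag2 was 1.49-fold higher, or 0.58 ± 0.26 (SE) on the log2 scale, at an adjusted p = 0.0357 in edgeR. The call was lost with DESeq2 (adjusted p = 0.226) and limma-voom (adjusted p = 0.0533). It was also lost without WT-labelled replicate 1 (adjusted p = 0.0622) or 3 (0.138) and without null-labelled replicate 2 (0.0746) or 3 (0.183), in edgeR each time.

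Jag1 remained the most abundant ligand per kilobase under both labels, at 1.82 to 2.27 CPM per kilobase in the WT-labelled and 2.74 to 2.88 in the null-labelled libraries. Dll1 stood second in the null-labelled libraries, at 0.831 to 1.18 CPM per kilobase, above Jag2 at 0.291 to 0.434. In the WT-labelled libraries Jag2, at 0.207 to 0.275, lay above Dll1, at 0.14 to 0.184, although neither had more than 24 counts in a library. Of the 3 ligands' summed level, Dll1 made up 6.78% ± 1.4 in the WT-labelled and 24.9% ± 3.36 (SD, n = 3) in the null-labelled libraries.

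The 3 target genes did not move together. Hes1, a repressor that is the classical target of the pathway, was higher, Hey1, a related repressor, was without a count in the null-labelled libraries, and Heyl, a further relative, had no count in any library. Hes1 is at chr16:30064384-30067796 (plus strand). Hes1 stood at 11.3, 12.8 and 12.8 CPM in the WT-labelled libraries and at 31.9, 30.7 and 29.9 CPM under the null label. The groups were far apart and tight, and Hes1 was 2.53-fold higher, or 1.34 ± 0.068 (SE) on the log2 scale, at an adjusted p = 1.09e-84 in edgeR.

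Hey1, at chr3:8663359-8667256 (minus strand), had 12, 18 and 13 counts in the WT-labelled libraries and 0 in each null-labelled one. With the null-labelled group set at 3 counts over its 3 libraries, Hey1 was at least 13.8-fold lower. It had too few counts to pass the filter of the main test. With no filter on low counts the edgeR adjusted p was 3.51e-12, and with DESeq2 it was 5.89e-06. Heyl, at chr4:123233556-123249875 (plus strand), had 0 counts in all 6 libraries, where a count of 3 would correspond to 0.127 to 0.192 CPM. Heyl was therefore not detectable at this depth, and no comparison of its level can be made.

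The counts add reads over all exons without regard to strand, and reads that fall on exons of more than 1 gene were left out. Of the 10 genes, 4 share exonic bases with another annotated gene, namely Dll1 (20.6% of its bases, with A930024N18Rik on the other strand), Notch1 (9.76%), Notch3 (6.07%) and Notch2 (5.02%). Those partners had few counts of their own, at most 31 over the 3 libraries of a label (Gm42820, at Notch2), and A930024N18Rik had 2 and 3. Such genes are uncertain in their absolute level, since reads over the shared stretches are missing and reads of either strand are pooled. The other 6, Notch4, Jag1, Jag2, Hes1, Hey1 and Heyl, share none.

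Other genes of the Notch pathway were followed as 55 genes in 9 roles, of which 48 were tested. Higher in the null-labelled libraries were 27 and lower were 18, together 93.8% of those tested against 79.2% of all genes. The counts by role below stand against 38.1% of all genes called higher and 41.1% called lower. By over 2-fold 8 were higher and 6 lower, 29.2% of those tested against 26.2% of all genes, a share near the background. The median log2 fold change was 0.16, against -0.02 over all genes. Those named below are mainly the genes with the largest differences in each role.

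The largest differences were in the Delta-like proteins, in a Fringe enzyme and in a feedback inhibitor. Dlk1, an atypical ligand without the domain that binds Notch and known from fetal and fat precursor cells, stood at 802 ± 27.1 CPM in the WT-labelled and 1.88 ± 0.129 CPM in the null-labelled libraries (SD, n = 3), 426-fold lower. Its relative Dlk2 had 264, 148 and 240 counts in the WT-labelled libraries and 0 under the null label, at least 209-fold lower. The Delta ligands Dll3 and Dll4 were too low to test, with 0 and 4 counts over the WT-labelled and 2 and 14 over the null-labelled libraries. The atypical ligands thus fell while Dll1 and Jag1 rose.

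Among the 5 enzymes that put sugars on the receptors, 1 was higher, 3 were lower and Pofut1 (log2 fold change 0.04 ± 0.040 SE) was not called. Mfng, or Manic fringe, which alters the preference of Notch for Delta over Jagged ligands, had 13, 8 and 11 counts in the WT-labelled libraries and 602, 594 and 642 under the null label. This is a level of 0.553 ± 0.026 against 33.3 ± 2.1 CPM (SD, n = 3), 59.1-fold higher in the null-labelled libraries. The other Fringe genes moved little, with log2 fold changes of -0.35 ± 0.087 (SE) for Lfng and -0.24 ± 0.055 (SE) for Rfng. Per kilobase, Mfng made up 1.01% ± 0.035 of the 3 Fringe transcripts in the WT-labelled and 42.5% ± 0.764 (SD, n = 3) in the null-labelled libraries. Poglut1, which adds O-linked glucose to the receptor, was lower, at 86.7 ± 0.43 against 53.7 ± 1.12 CPM (SD, n = 3).

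The proteases that make the first cuts in the receptor differed by small amounts. The 3 enzymes of the first cuts were all higher, with log2 fold changes of 0.45 ± 0.029 (SE) for Adam17 and 0.20 ± 0.029 (SE) for Adam10, the metalloproteases that act after the ligand binds. Of 7 subunits of gamma-secretase, the complex that frees the intracellular part, 4 were higher and 2 lower of 6 tested. Aph1b stood at 20.0 ± 0.0779 against 9.05 ± 0.944 CPM, and Ncstn, nicastrin, at 149 ± 2.57 against 103 ± 4.13 CPM (SD, n = 3), both with the WT-labelled value first. Aph1c, too low to test, had 34 counts over the WT-labelled and 1 over the null-labelled libraries. The ratio was 32.7, with an exact binomial 95% counting interval of 5.49 to 1329. Of the 4 ubiquitin ligases that let ligands be taken up by the cell that sends them, 3 were lower and 1 higher. On the log2 scale Neurl1a was higher by 0.97 ± 0.12 (SE) and Mib2 differed by -0.60 ± 0.072 (SE). Neurl1b had 49 counts over the WT-labelled and 2 over the null-labelled libraries, a ratio of 23.6 with an exact binomial 95% counting interval of 6.19 to 200.1.

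In the nucleus, Rbpj, which encodes the DNA-binding partner of all Notch receptors, was lower at 165 ± 7.9 against 93.5 ± 0.948 CPM (SD, n = 3). Its 3 coactivators of the Mastermind family went different ways, with Maml1 lower (log2 fold change -0.19 ± 0.037 SE), Maml3 higher (0.39 ± 0.043 SE) and Maml2 at -0.01 ± 0.058 (SE). The acetyltransferase Kat2b was higher, at 23.5 ± 0.39 against 58.3 ± 2.15 CPM (SD, n = 3). Of 8 genes of this complex 4 were higher, 3 lower and Maml2 not called. Among 9 corepressors 5 were higher, 3 lower and Tle2 (-0.05 ± 0.063 SE) not called. Tle4, a Groucho-type corepressor, stood at 4.37 ± 0.772 against 24.4 ± 0.667 CPM and Kdm5a, a histone demethylase, at 108 ± 3.97 against 239.7 ± 3.96 CPM (SD, n = 3). Of the other Tle genes called, Tle1 was lower, at 99.5 ± 0.544 against 46.3 ± 1.18 CPM (SD, n = 3). Tle3 was higher, at 91.4 ± 4.84 against 156 ± 4.53 CPM (SD, n = 3).

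Of the 9 genes grouped here as negative regulators of the receptor, 8 were tested, 7 were higher and 1, Dtx3, lower. The group includes the Deltex genes, and whether these dampen the receptor in such cells was not tested. Among those higher, Dtx2 differed by only 0.12 ± 0.053 (SE) on the log2 scale, and its labels overlapped. Nrarp, a small protein that is itself switched on by Notch and dampens it, had 4, 2 and 3 counts in the WT-labelled libraries and 130, 114 and 127 under the null label. Nrarp was 41.2-fold higher, a log2 fold change of 5.36 ± 0.27 (SE) at an adjusted p = 9.59e-88 in edgeR. Of the exonic bases of Nrarp, 79.4% also belong to Gm38287 on the other strand, so that its counts come from the remaining part only and reads of the strands cannot be told apart. All exonic bases of Gm38287 lie within that shared stretch, and it had 0 counts in all libraries. Dtx4, a Deltex ubiquitin ligase, stood at 12.8 ± 0.503 against 37.9 ± 2.51 CPM (SD, n = 3). Dtx1 had 1 count over the WT-labelled and 31 over the null-labelled libraries, a ratio of 32.2 with an exact binomial 95% counting interval of 5.37 to 1313.

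**Figure D3:**
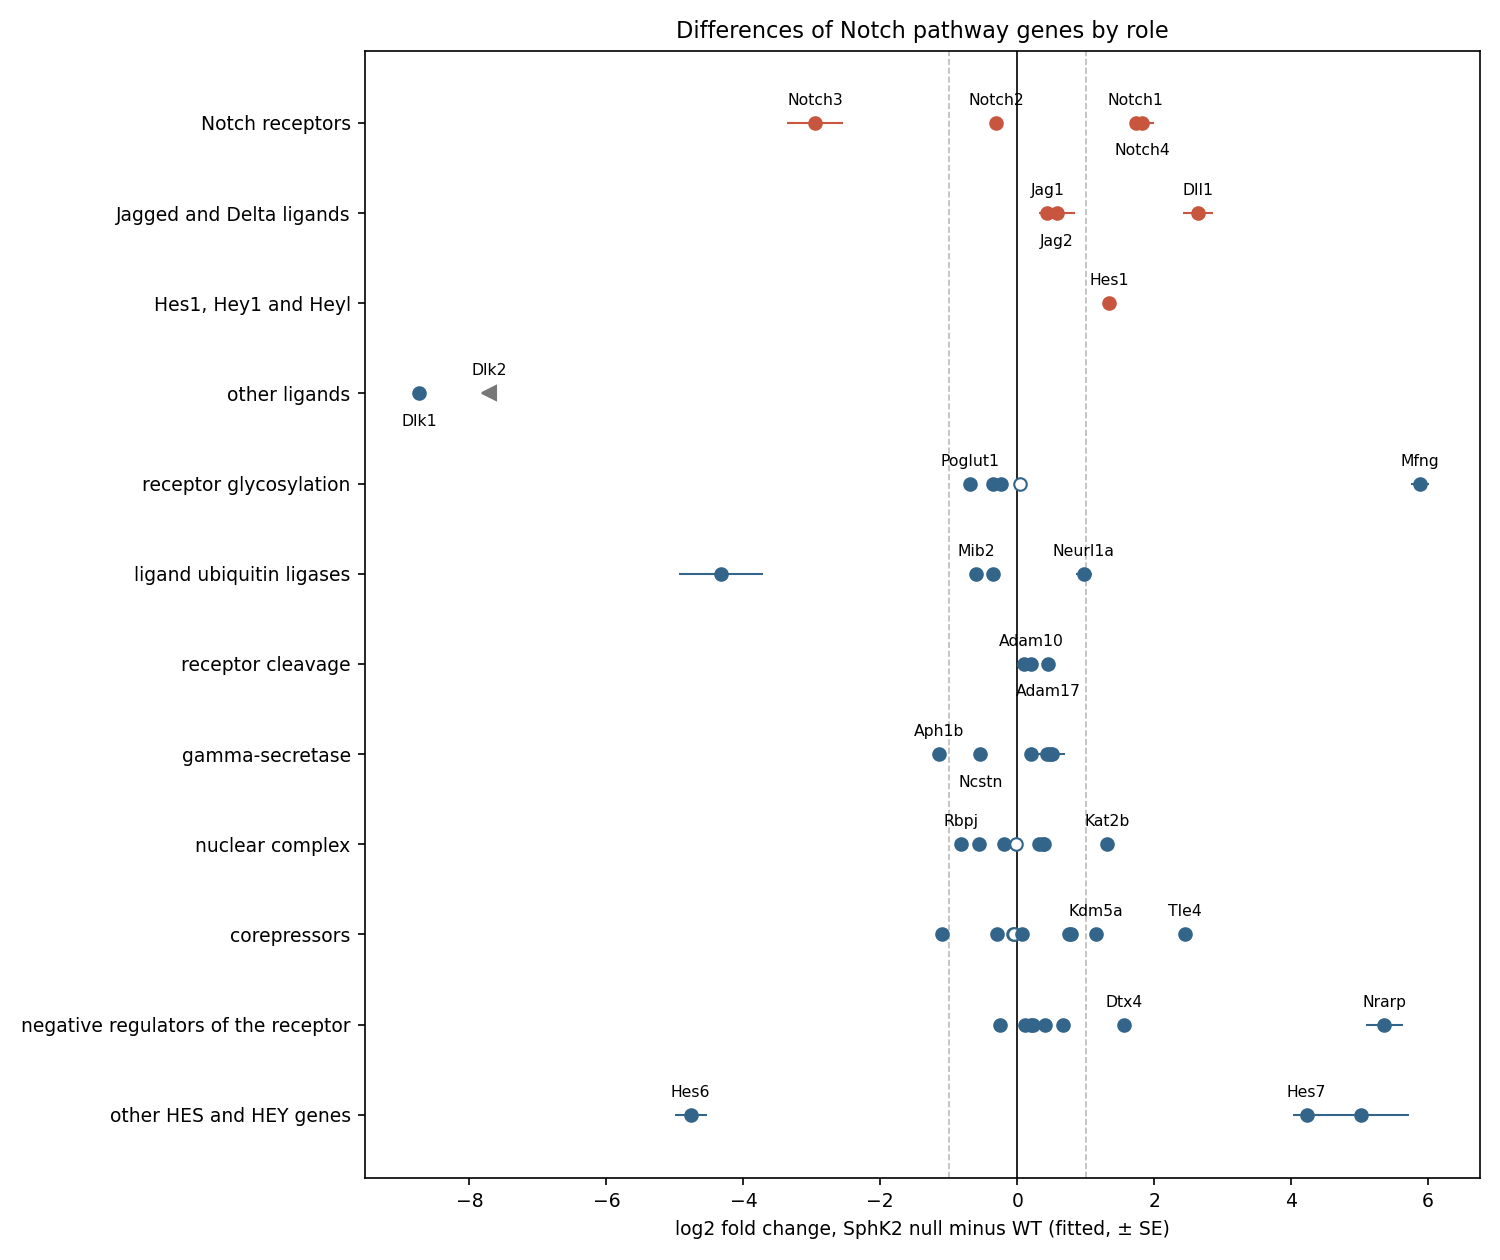
Fitted log2 fold change, null-labelled minus WT-labelled, of the tested genes by role, with SE bars. Open circles did not pass an adjusted p of 0.05, dashed lines mark 2-fold, and the triangle for Dlk2 is the bound from 3 counts. Most genes lie between the dashed lines, while Mfng, Nrarp and Hes7 lie far to the right and Dlk1, Dlk2 and Hes6 far to the left.

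The wider family of Hes and Hey repressors differed gene by gene between the labels. Beside Hes1, Hes7, known from the segmentation clock of the embryo, was higher, with 9, 7 and 9 counts in the WT-labelled libraries and 154, 131 and 172 under the null label. It was 18.7-fold higher, a log2 fold change of 4.23 ± 0.21 (SE) at an adjusted p = 1.70e-92 in edgeR. Of its exonic bases 12.9% are shared with 9130213A22Rik on the other strand. That gene had 5 counts over the WT-labelled and 42 over the null-labelled libraries, and reads of the strands cannot be told apart. Hes2 had 1 count over the WT-labelled and 43 over the null-labelled libraries, a ratio of 44.7 with an exact binomial 95% counting interval of 7.61 to 1806.

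Hes6, which opposes Hes1 in neural precursors, was lower, with 187, 106 and 144 counts in the WT-labelled libraries and 4, 6 and 5 under the null label. It was 27.3-fold lower, a log2 fold change of -4.77 ± 0.23 (SE) at an adjusted p = 3.73e-91 in edgeR. Hes3, Hes5 and Hey2 had at most 2 counts over the 3 libraries of either label, at or under the floor of 3 counts, so no fold is given. Of the exonic bases of Hes5, 31.8% are shared with another gene and give no counts. Of the 9 genes in this family, the null-labelled libraries thus had over 3 counts in total from Hes1, Hes2, Hes6 and Hes7 only, and the WT-labelled ones from Hes1, Hes6, Hes7 and Hey1 only.

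**Figure D4:**
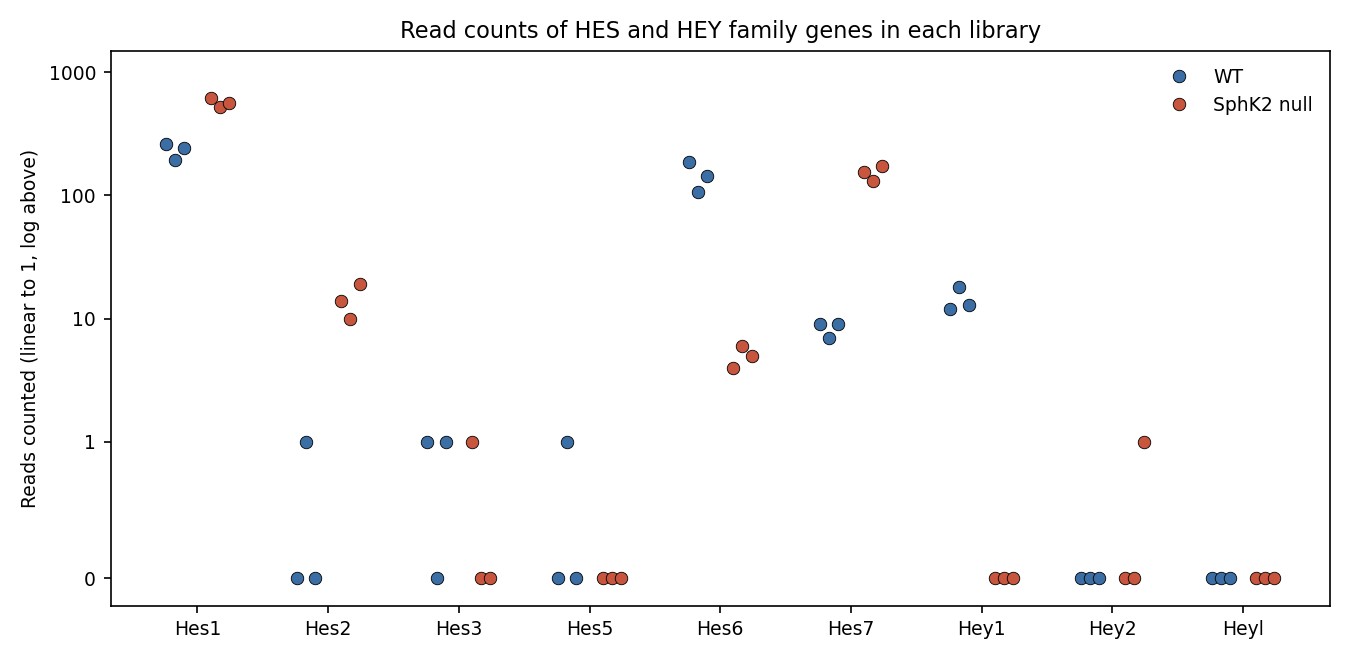
Reads counted for 9 Hes and Hey genes in each library, on an axis that is linear up to 1 and logarithmic above. Hes1, Hes2 and Hes7 lie higher in the null-labelled libraries, Hes6 and Hey1 lower, and Heyl is at 0 in all.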

How the data were processed

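The authors deposited, for each of the 6 libraries, a table of raw read counts per Ensembl gene. Per the file headers, the deposited counts were made with featureCounts 1.6.2 from exons of the GRCm38 annotation of Ensembl release 83 under mm10 chromosome names, without options for strand, for multimapping or for exons that genes share. Per the submitters' processing notes, Trimmomatic 0.33 and Subread 1.6.2 were also used. For featureCounts these notes give version 1.2.6, which differs from the headers. Per the file headers, the deposited tables also give the exonic length of each gene in bases, used as other values for levels per kilobase.

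Groups were taken from the titles. Genes kept by filterByExpr were scaled by TMM, and edgeR 4.0.16 in R 4.3.3 gave a robust quasi-likelihood F-test with no covariate, with Benjamini-Hochberg adjustment over the 15199 genes. The SE is the size of the log2 fold change over the square root of F. The test was also run on simulated counts in which few genes changed, unlike in these data, so that run says little about error rates here. Intervals were computed from counts summed over the libraries of a label, so they leave out the spread between libraries. Bounds and floors rest on a fixed count, and the bounds take the WT-labelled counts as exact. The reads carried no molecular identifiers and need not stand for separate molecules. The counting error of molecules may therefore be larger than the intervals show. No library was left out of the main test, and no count was imputed in it. Replicate numbers were shared between labels, but same-numbered libraries did not deviate together (correlations 0.0123, -0.0028 and 0.0181).

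The 10 genes, the pathway and marker lists and the tests were chosen with earlier results of these data known. The rule for naming took, per role, the 2 tested genes with the largest difference past the threshold, with labels that did not overlap and a mean log2 CPM of 0 or more, and genes at 0 under 1 label with at least 1 CPM under the other. Lfng, Rfng, Neurl1b, Hes2, Hes3, Hes5, Hey2, Dll3, Dll4, Dtx1, Dtx3, Pofut1, Tle2, Spen, Psen2, Psenen and the Mastermind genes were named after their values were seen. So were Aph1c, Dtx2, Tle1 and Tle3. Alternatives were median-of-ratios and upper-quartile factors, DESeq2 1.42.0, limma-voom (limma 3.58.1), no filter, over 1 CPM in 3 libraries, a replicate block, an adjusted p under 0.01 and leaving out each library.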

Additional observations from a re-analysis of the deposited data

How the results depend on the processing

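Of the 8 genes tested, 7 kept their direction and stayed past the threshold under all 8 alternatives of tool, scaling, filter, block and threshold and without each of the 6 libraries. The exception was Jag2. Its log2 fold change of 0.58 was no longer past the threshold at an adjusted p under 0.01 (0.58), with DESeq2 (0.57), with limma-voom (0.56) and with no filter on low counts (0.55), and it ran from 0.43 to 0.73 when 1 library was left out. With a block for the replicate number Jag2 was at 0.56 (adjusted p = 0.0532). With the block the gamma-secretase subunit Psenen also lost its call (log2 fold change 0.47, adjusted p = 0.0479 without and 0.0586 with the block), and no other of the 10 genes or the 55 pathway genes changed its call. The labels do not say whether the numbers pair the libraries, and the cause of these lost calls was not tested. Hey1 was tested with DESeq2 (5.89e-06), with no filter (3.51e-12) and in 4 of the fits that left out a library, with adjusted p from 1.52e-11 to 1.95e-08. Without length correction the receptor shares moved, to 7.32% (Notch1), 91.7% (Notch2), 0.428% (Notch3) and 0.538% (Notch4) in the WT-labelled and to 24.3%, 73.7% and 1.96% (Notch1, Notch2, Notch4) in the null-labelled libraries. The null-minus-wild-type difference of their sum, an alternative chosen after seeing the data, turned from -0.915 CPM per kilobase to 1.55 CPM, because the genes differ in length. The median of all genes moved by under 0.1 on the log2 scale under every scaling. Depth limits Notch3, Jag2, Hey1 and Heyl, which had under 35 counts in each library.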

Other observations

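Secreted and membrane proteins reported as noncanonical partners of Notch were also counted, a list chosen after the data were seen. Ccn3, a matricellular protein, stood at 29.6 ± 0.163 CPM in the WT-labelled and 0.216 ± 0.0904 CPM in the null-labelled libraries (SD, n = 3). Thbs2 had the largest difference of the list, at 392.5 ± 10.2 against 0.665 ± 0.0709 CPM (SD, n = 3). Mfap2, a protein of elastic microfibrils, was at 18.3 ± 0.448 against 0.417 ± 0.165 CPM, and the neuronal Delta-like protein Dner at 4.15 ± 0.155 against 1.18 ± 0.373 CPM (SD, n = 3). Egfl7, secreted by endothelium, was higher at 10.7 ± 0.382 against 22.1 ± 1.29 CPM (SD, n = 3). Mfap5 did not pass the threshold, at 1.02 ± 0.215 against 0.901 ± 0.332 CPM (SD, n = 3, edgeR adjusted p = 0.674). Cntn1 and Cntn6 had 3 and 1 counts over all libraries.

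Dlk1 lies in an imprinted region with noncoding RNAs made from the other parental copy, and these were followed after its values were seen. Meg3 had 110 counts over the WT-labelled and 1 over the null-labelled libraries, a ratio of 106 with an exact binomial 95% counting interval of 18.6 to 4217. Rian had 115 against 1, a ratio of 111 with an interval of 19.5 to 4407. Rtl1, expressed from the same parental copy as Dlk1, had 32 against 2, a ratio of 15.4 with an interval of 3.93 to 133. Dlk1, Rtl1, Meg3 and Rian were thus each counted less in the null-labelled libraries, and the parental copy their reads came from was not tested.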
